A study of Mus musculus with 15 samples.

Results

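The 7 genes described here encode the MHC class II presentation machinery: the classical chains H2-Aa, H2-Ab1 and H2-Eb1, the invariant chain Cd74, the peptide loading chains H2-DMa and H2-DMb1, and the class II transactivator Ciita. They were taken by symbol from a count table of 53278 genes, all 7 were found, and all 7 passed the filter on low counts that left 18369 genes for testing. RNA was sequenced in bulk from the brain cortex of 15 male C57BL/6J mice aged 10 to 20 weeks, with 1 library per mouse and 5 mice in each of 3 groups. Control mice ate control food. Depleted mice ate food containing PLX3397, an inhibitor of CSF1R, the receptor that microglia need to survive, for 9 days. In the repopulation group 9 days on the PLX3397 diet were followed by 9 days back on the control diet. PLX3397 reaches all cells that depend on CSF1R, including macrophages outside the brain tissue itself, and no group received PLX3397 without loss of microglia.

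MHC class II molecules are pairs of an alpha and a beta chain that display peptides from ingested proteins to CD4 T cells. The invariant chain fills the groove of a new class II pair and escorts it to the endosome, where proteases trim the invariant chain and the DM pair exchanges the last fragment of it for a peptide. CIITA is the non-DNA-binding switch that turns the whole set on, together with factors bound to the X and Y boxes of the promoters. In healthy brain, class II is found mainly on border macrophages, dendritic cells and a few other leukocytes, and microglia express little of it unless they are activated.

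The class II promoters carry short elements that bind these factors. Shown here are those of the members H2-Aa and H2-Eb1, and of H2-DMb2 and H2-Ob, class II chains outside the members. Sequences are from the RefSeq promoter table on GRCm38.p6, 75 bases each on chromosome 17, read 5′ to 3′ on the strand of the gene. Capitals mark the Y box letters TGATTGG, the X box letters AACNNATGATG where they occur, and in H2-Aa the cyclic AMP element letters TGACGTCA.
H2-Aa, chr17:34287859-34287933, minus strand: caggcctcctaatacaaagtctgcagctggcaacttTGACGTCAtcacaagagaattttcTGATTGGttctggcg
H2-Eb1, chr17:34305746-34305820, plus strand: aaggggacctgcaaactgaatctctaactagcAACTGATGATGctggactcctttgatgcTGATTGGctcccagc
H2-DMb2, chr17:34145097-34145171, plus strand: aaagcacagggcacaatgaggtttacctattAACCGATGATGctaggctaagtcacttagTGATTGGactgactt
H2-Ob, chr17:34238786-34238860, plus strand: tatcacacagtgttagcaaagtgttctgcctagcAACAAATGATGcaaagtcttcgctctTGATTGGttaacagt

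The X box letters are the bases shared by windows placed a set distance before the Y box of H2-Eb1, H2-DMb1, H2-DMb2 and H2-Ob. The spacing was thus an input and not a finding. Between the X and Y box letters lay 17 bases in H2-Eb1, 18 in H2-DMb2 and 15 in H2-Ob. H2-DMb1 also had both, 18 bases apart, and H2-Oa had the Y box letters only, but these windows run into annotated exons and are not printed. Neither of the 2 entries of H2-DMa held any of the 3 motifs. Promoters of H2-Ab1, Cd74 and Ciita are not shown. Both strands were searched over the 250 bases before the annotated start, and the X box letters were read from these class II promoters themselves. Of 32851 promoters in the table, 7.23% held the Y box letters, 0.119% the X box letters, 1.55% the cyclic AMP element letters, and 0.0274% both X and Y box letters. Those with both were 9 entries. Of these, 4 were the class II promoters that had defined the X box letters, so their presence was fixed in advance. A match of letters is a description of the promoter and does not show that a factor was bound in these mice.

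The libraries held 23413551 to 48617851 counts, and none of the members is an abundant transcript of the cortex. The labelled tissue fits its markers, since the 5 cortical neuron markers summed to 4173 to 4959 CPM (read counts scaled to library size, with TMM factors) across the libraries. The sum of 10 microglia markers was 261 ± 11.2 for the controls, 19.4 ± 2.34 under PLX3397 and 286 ± 10.9 in repopulated mice (SD, n = 5 each), and that of 10 border macrophage markers was 38.0 ± 3.96, 5.04 ± 0.42 and 36.1 ± 2.98. Choroid plexus transcripts varied widely between libraries, and Ttr, the transthyretin gene of the choroid plexus, exceeded 50 CPM in depletion mice 1, 2 and 3 and repopulation mouse 4. In bulk tissue, fewer cells of a type and less RNA per cell cannot be told apart, and this holds for every difference given below.

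The 7 members stood at very different levels in control cortex when compared per length (RPKM, the CPM per kilobase of annotated exon). That length joins all annotated exons of a gene, 9535 bases for Ciita and 2568 for H2-Ab1, so the order depends on the annotation. By CPM, Ciita (1.92 to 2.57 in control) lay above H2-Ab1 (0.715 to 1.40). H2-DMa was highest at 2.61 ± 0.295 RPKM and Cd74 next at 2.36 ± 0.662, with overlapping ranges. H2-Eb1 followed at 0.539 ± 0.264 RPKM, H2-DMb1 at 0.495 ± 0.0986, H2-Aa at 0.415 ± 0.134 and H2-Ab1 at 0.401 ± 0.117, and these 4 neighbours did not differ beyond their spread. Ciita was lowest at 0.239 ± 0.0331 RPKM, below every control value of H2-Ab1, whose lowest was 0.278 RPKM (SD, n = 5 for each). On PLX3397 the upper pair separated, with H2-DMa at 2.09 ± 0.257 RPKM and Cd74 at 0.718 ± 0.172 and no overlap between them. After repopulation H2-DMa stood at 2.32 ± 0.149 RPKM, Cd74 at 1.86 ± 0.28, H2-Eb1 at 0.481 ± 0.0952, H2-DMb1 at 0.366 ± 0.0742, H2-Aa at 0.258 ± 0.125, Ciita at 0.231 ± 0.0358 and H2-Ab1 at 0.168 ± 0.0764. There each member's range overlapped that of the next in this order, except for Cd74 and H2-Eb1, which were apart.

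**Figure D1:**
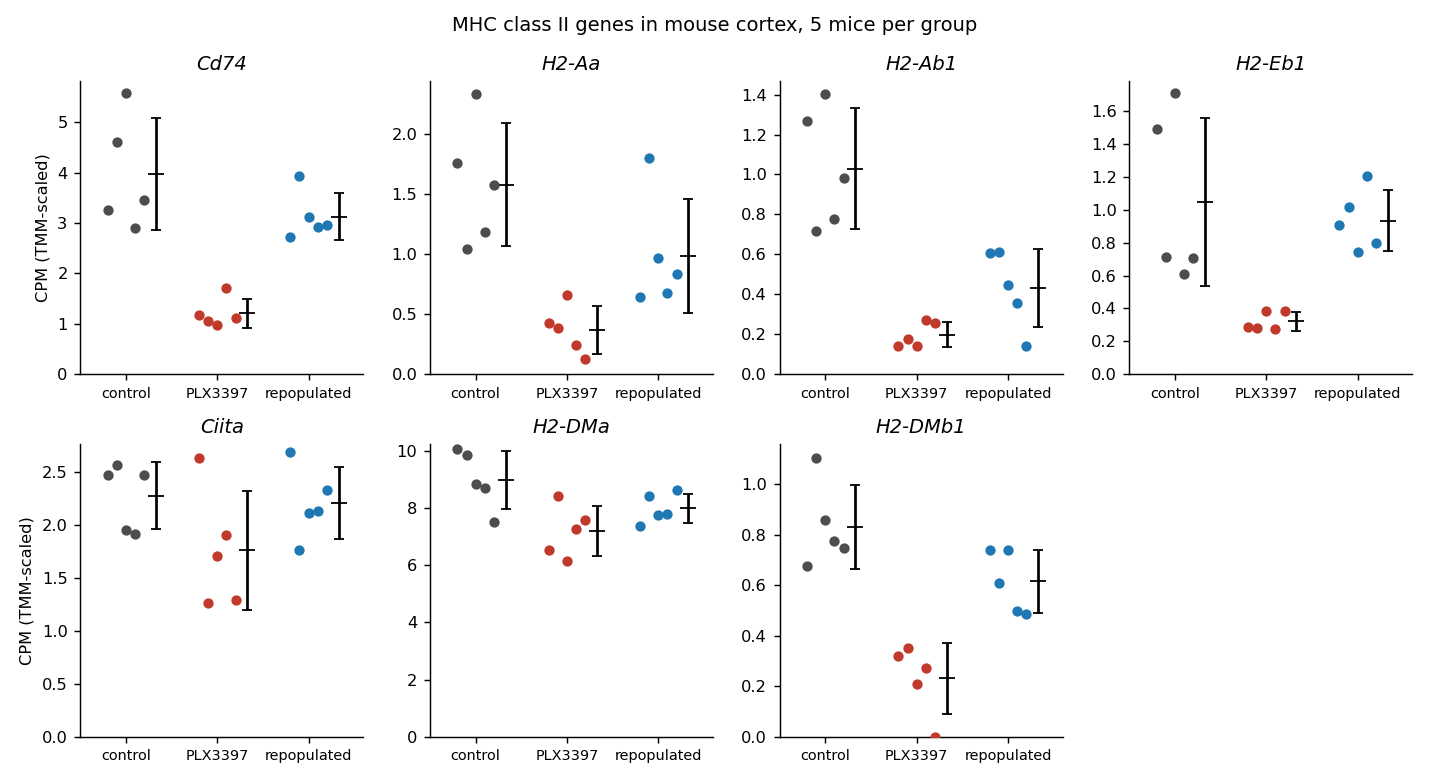
CPM (TMM-scaled) of each of the 7 class II genes, 1 point per mouse, in control, PLX3397 and repopulated cortex, with the mean and SD of 5 mice beside each group on axes that start at 0. The PLX3397 points lie below all control points for Cd74, H2-Aa, H2-Ab1, H2-Eb1 and H2-DMb1. For H2-DMa the 2 groups overlap, and for Ciita 1 PLX3397 point lies above all control points and 4 below them.

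PLX3397 against control compares class II transcript in the cortex after 9 days on the PLX3397 diet with that of mice on control food. The 3 classical chains, the invariant chain and both DM chains fell, and Ciita did not pass the test. By the adjusted p threshold of 0.05 (Benjamini-Hochberg, from edgeR's quasi-likelihood F test, as for all adjusted p below), 6 of the 7 members were lower, against 8.35% of all genes tested that were lower, and none was higher, against 8.19%. The median log2 fold change of the members was -1.74 beside -0.00186 for all genes. In 5 of the 7 the depleted and control libraries did not overlap, which held in this direction for 5.38% of all genes. H2-Aa, H2-Ab1, H2-Eb1 and H2-DMb1 had 3, 0, 2 and 1 depleted libraries above the limit of the filter on low counts. They were kept through the control and repopulated libraries, where they were higher, so both counts lean on genes kept in that way.

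After the return to control food 5 members, Cd74, H2-Aa, H2-Ab1, H2-Eb1 and H2-DMb1, were higher than on PLX3397, against 7.61% of all genes that were higher, and none was lower, against 8.98%, with a median log2 fold change of 1.36 over the 7 members and 0.000843 over all genes. The libraries of the 2 groups did not overlap in 3 of the 7, Cd74, H2-Eb1 and H2-DMb1, beside 5.57% of all genes in this direction. The limit given above, on genes kept by the filter through the groups where they were higher, holds for these counts too. Against control, 1 of the 7 members, H2-Ab1, was still lower, while 15.2% of all genes were lower in that comparison, so the count is near the background, and none was higher, against 13.9%. The median log2 fold change of the members was -0.34 beside 0.00739 for all genes. The 3 comparisons share groups, so that the control libraries enter the first and the third and the depleted ones the first and the second.

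**Figure D2:**
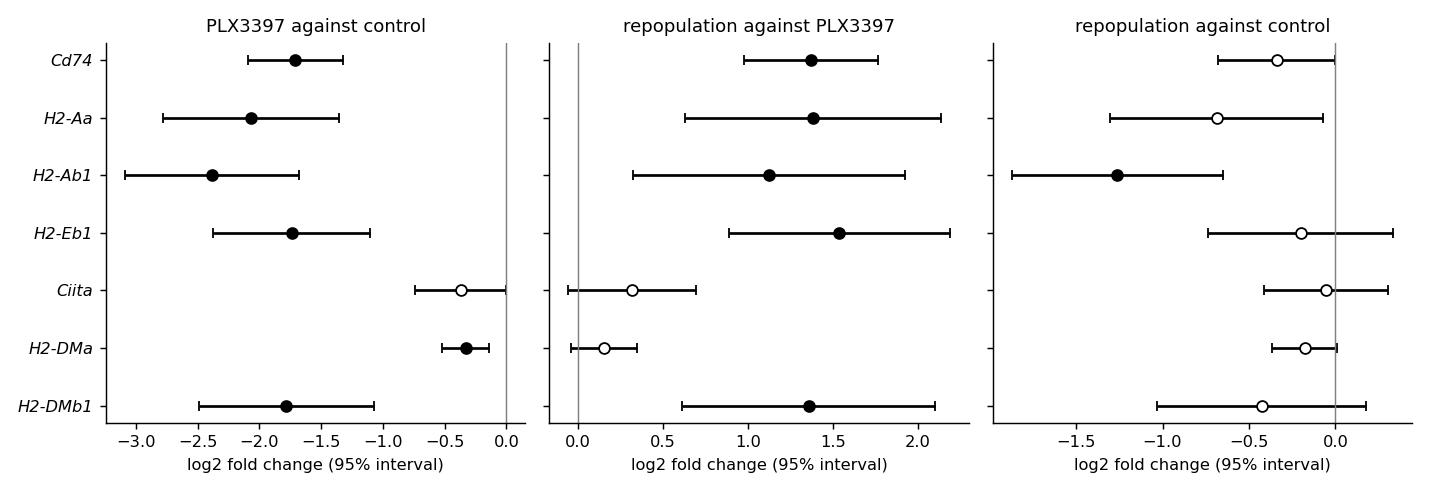
Log2 fold change with its 95% interval for each of the 7 class II genes in the 3 comparisons between groups of 5 mice, filled where the adjusted p was under 0.05. The first panel has 6 filled points below 0, the second has 5 above 0, and the third has 1, H2-Ab1, at -1.26.

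Cd74, the invariant chain, was the deepest of the strongly changed members, with 623 reads over the 5 control libraries. Control mice 1 to 5 had 3.25, 4.61, 5.58, 2.90 and 3.46 CPM. Mice on PLX3397 had 1.17, 1.06, 0.975, 1.71 and 1.12 CPM. Repopulated mice had 2.73, 3.93, 3.11, 2.91 and 2.96 CPM. Every depleted library was below every other library, and 4 of the 5 repopulated values lay within the control range. PLX3397 left Cd74 at 30.4% ± 7.3 of its mean in controls (SD, n = 5), a log2 fold change of -1.71 (SE 0.187, adjusted p = 2.12e-07). It rose again by 1.37 on the log2 scale (SE 0.191, adjusted p = 1.02e-05) and then stood at 78.9% ± 11.8 of control. The remaining difference from control, -0.34 (95% interval -0.68 to -5.64e-06), had an adjusted p of 0.128. Cd74 lies on chromosome 18 from 60803848 to 60812652 on the plus strand of GRCm38.

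H2-Aa, the alpha chain of the classical A molecule, fell further. It had 1.76, 1.04, 2.33, 1.18 and 1.57 CPM in control mice 1 to 5. On PLX3397 it had 0.427, 0.388, 0.661, 0.239 and 0.129 CPM, the last of these from 3 reads. After repopulation it had 0.640, 1.80, 0.963, 0.674 and 0.835 CPM. All depleted values were below all control values, while the lowest repopulated value, 0.640 CPM in mouse 1, lay just under the highest depleted one, 0.661 CPM in mouse 3. The log2 fold change was -2.07 (SE 0.343, adjusted p = 1.83e-04) on PLX3397, which left 23.4% ± 12.8 of the control mean, and 1.38 (SE 0.363, adjusted p = 0.0107) from PLX3397 to repopulation. Against control the repopulated group stood at 62.2% ± 30.0, a log2 fold change of -0.69 (SE 0.296, adjusted p = 0.0868). That difference passed the test without repopulation mouse 2, the highest of its group, at -1.03 (adjusted p = 0.00937), and with no filter on low counts, at -0.69 (adjusted p = 0.0173). H2-Aa lies on chromosome 17 from 34282744 to 34287823 on the minus strand.

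H2-Ab1, the beta chain that pairs with H2-Aa, was the member left lowest on PLX3397 and the one that came back least. Control mice 1 to 5 had 1.27, 0.715, 1.40, 0.775 and 0.984 CPM. Mice on PLX3397 had 0.142, 0.176, 0.139, 0.273 and 0.258 CPM, from 4 to 8 reads each. Repopulated mice had 0.606, 0.610, 0.445, 0.355 and 0.139 CPM. Both treated groups lay wholly below control, and repopulation mouse 5, with 4 reads, was as low as the lowest depleted mouse. H2-Ab1 passed the filter on low counts through 5 control and 4 repopulated libraries, with 0 depleted libraries above its limit. Its tests against the depleted group are to be read with that limit. PLX3397 left H2-Ab1 at 19.2% ± 6.19 of its mean in controls (log2 fold change -2.38, SE 0.342, adjusted p = 1.63e-05). After repopulation it stood at 41.9% ± 19.1 of control, a log2 fold change of -1.26 (SE 0.297, adjusted p = 0.00205), and this call held under each of 22 alternatives, with adjusted p up to 0.00897. The rise from PLX3397 to repopulation, 1.12 on the log2 scale (SE 0.389, adjusted p = 0.0478), was at the edge of the threshold and was lost under 13 of 21 alternatives, with adjusted p up to 0.523. H2-Ab1 lies on chromosome 17 from 34257689 to 34269419 on the plus strand.

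H2-Eb1, the beta chain of the classical E molecule, was the classical chain nearest to its control mean after repopulation. C57BL/6 mice do not make the alpha chain of that molecule, so that H2-Eb1 has no partner on the cell surface, and the alpha chain locus, listed as H2-Ea-ps, had 0 reads in all 15 libraries. H2-Eb1 had 1.49, 0.715, 1.71, 0.612 and 0.708 CPM in control mice 1 to 5. Mice on PLX3397 had 0.284, 0.282, 0.383, 0.273 and 0.387 CPM. Repopulated mice had 0.909, 1.02, 0.741, 1.21 and 0.800 CPM. Control mice 1 and 3 were well above the other 3 controls, all depleted values were below all others, and the repopulated values fell within the control range. The log2 fold change was -1.74 (SE 0.308, adjusted p = 2.58e-04) on PLX3397, leaving 30.7% ± 5.51 of the control mean, and 1.54 (SE 0.316, adjusted p = 0.0012) from PLX3397 to repopulation. Against control the repopulated group stood at 89.2% ± 17.6, a log2 fold change of -0.20 (95% interval -0.74 to 0.34, adjusted p = 0.612). H2-Eb1 lies on chromosome 17 from 34305867 to 34316674 on the plus strand.

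The controls shared an order across the classical chains. Control mouse 3 was highest and control mouse 1 next for H2-Aa, H2-Ab1 and H2-Eb1. For Cd74 mouse 3 was again highest but mouse 1 was the fourth, and for H2-DMb1 mouse 1 was lowest. Per length, H2-Aa and H2-Ab1, the partners of 1 heterodimer, stood at a ratio of 0.938 to 1.12 in the 5 controls. How near it lies to 1 depends on the annotated exon lengths, and by CPM H2-Aa was above H2-Ab1 in all 5 controls. The ratio per length spread to 0.338 to 3.21 on PLX3397, where these genes had 3 to 19 and 4 to 8 reads per library. After repopulation it ran from 0.714 to 4.06, with the highest in mouse 5, whose H2-Ab1 count was 4. The ratio of Cd74 to the summed 3 classical chains, per length, had a median of 1.78 in control (1.12 to 2.99), 2.00 on PLX3397 (1.36 to 3.28) and 1.90 after repopulation (1.85 to 2.57), with overlapping ranges.

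H2-DMb1, the beta chain of the peptide exchange factor DM, fell on PLX3397 and rose after it. It had 0.675, 1.10, 0.856, 0.775 and 0.747 CPM in control mice 1 to 5. Mice on PLX3397 had 0.320, 0.352, 0.209, 0.273 and 0 CPM, where 3 reads in mouse 5 would have been 0.129 CPM. Repopulated mice had 0.741, 0.610, 0.741, 0.497 and 0.487 CPM. All depleted libraries were below all others, and 2 of the 5 repopulated libraries lay within the control range. PLX3397 left 27.7% ± 16.8 of the control mean (log2 fold change -1.78, SE 0.344, adjusted p = 6.64e-04) and rose by 1.36 on the log2 scale afterwards (SE 0.36, adjusted p = 0.0101), to 74.0% ± 15 of control (log2 fold change -0.43, 95% interval -1.03 to 0.18, adjusted p = 0.30). Of the 50-base stretches of its transcripts, 22.7% also occur in H2-DMb2, so that reads of this pair are uncertain. With the counts of both summed, the calls on H2-DMb1 did not change. H2-DMb1 lies on chromosome 17 from 34153072 to 34160230 on the plus strand.

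H2-DMa, the alpha chain of DM, fell by a smaller amount on PLX3397 than its partner, with 95% intervals of the log2 fold change (-0.52 to -0.14, and -2.49 to -1.07 for H2-DMb1) that did not overlap. It had 10.0, 9.85, 8.84, 8.69 and 7.51 CPM in control mice 1 to 5. Mice on PLX3397 had 6.54, 8.42, 6.16, 7.27 and 7.56 CPM. Repopulated mice had 7.38, 8.40, 7.74, 7.77 and 8.63 CPM. Depletion mice 2 and 5 were above the lowest control, and the repopulated values lay between the extremes of the other groups. The log2 fold change on PLX3397 was -0.33 (SE 0.0931, adjusted p = 0.0154), leaving 80.0% ± 9.85 of the control mean. The call was lost without control mouse 1 (-0.28, adjusted p = 0.0555), without depletion mouse 3 (-0.28, adjusted p = 0.052), with trends on gene length and GC content taken out (-0.27, adjusted p = 0.0602), and without the 4 libraries over 50 CPM of Ttr (-0.30, adjusted p = 0.111). From PLX3397 to repopulation the change was 0.15 (SE 0.0945, adjusted p = 0.307), and against control it was -0.18 (SE 0.0918, adjusted p = 0.154). Of its exon bases, 10.4% lie over exons of Brd2, a chromatin reader on the opposite strand that averaged 184 CPM in control mice, 188 in depleted and 199 in repopulated mice, and the part of such reads in the H2-DMa count was not tested. H2-DMa lies on chromosome 17 from 34119541 to 34139101 on the plus strand.

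Ciita, the transactivator on which constitutive and interferon-driven class II expression rests, did not pass the test in any comparison. Control mice 1 to 5 had 2.48, 2.57, 1.95, 1.92 and 2.48 CPM. Mice on PLX3397 had 2.63, 1.27, 1.71, 1.91 and 1.29 CPM. Repopulated mice had 2.69, 1.76, 2.11, 2.13 and 2.33 CPM. Depletion mouse 1 was higher than all 5 controls while the other 4 were lower than all 5. The log2 fold change was -0.37 on PLX3397 (95% interval -0.74 to -9.15e-04, adjusted p = 0.169), and it passed the test without depletion mouse 1, at -0.56 (adjusted p = 0.0266). From PLX3397 to repopulation it was 0.32 (95% interval -0.06 to 0.69, adjusted p = 0.262), and from control to repopulation -0.05 (95% interval -0.41 to 0.31, adjusted p = 0.857). Of its exon bases, 3.45% lie over exons of Dexi, a gene on the opposite strand with a mean of 31.8 CPM in control mice, 29.0 in depleted and 26.0 in repopulated mice, and the part of such reads in the Ciita count was not tested. Ciita lies on chromosome 16 from 10480059 to 10528418 on the plus strand.

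The other class II chains of the same region were scarce. Of 6 such genes in a list, 5 were in the table and 3 passed the filter, none with a depleted library above its limit. H2-DMb2 is a second DM beta chain gene. It had 6 to 10 reads in each control library, 2 to 7 on PLX3397 and 8 to 18 after repopulation. It passed the filter through 2 control and 3 repopulated libraries, so no test of its difference is given. H2-Eb2, a second E beta chain gene, had 1 read in all libraries together.

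H2-Oa and H2-Ob encode the DO pair, which restrains DM. H2-Oa had 0.225, 0.130, 0.103, 0.0816 and 0.197 CPM in control mice 1 to 5, 1 read in depletion mouse 4 and 0 in the other 4 depleted mice. Repopulated mice had 0.640, 0.373, 0.667, 0.426 and 0.487 CPM. All repopulated libraries were above all controls. The reads were 25 in control, 1 on PLX3397 and 74 after repopulation. H2-Oa passed the filter only through the 5 repopulated libraries. Its height there was thus a condition of its being kept, and no test of its difference is given. Of its exon bases, 22.8% lie over exons of BC051537 on the opposite strand.

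H2-Ob had 45 reads over the controls, 27 of them in mouse 1, 4 reads on PLX3397 and 74 after repopulation. Its levels were 0.0408 to 0.553 CPM in control (median 0.197), 0 to 0.129 on PLX3397 (median 0) and 0.222 to 0.876 after repopulation (median 0.487). Control and repopulated libraries overlapped. H2-Ob passed the filter through 1 control and 4 repopulated libraries, so no test of its difference is given.

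The members were next set against microglia and border macrophage markers, by fitting each gene's change less that of a sum of markers. On PLX3397 the microglia markers were left at 7.42% ± 0.894 of control and the border macrophage markers at 13.3% ± 1.1 (SD, n = 5), while the members kept 19.2% to 80.0%. All 7 members were above the microglia marker sum in this test, from H2-Ab1 at 1.35 to H2-DMa at 3.44 on the log2 scale, but so were 99.3% of all genes, so the count says nothing about the members. The size of these differences rests on the marker choice, since Sall1 kept 58.8% of its control level and Olfml3 19.4%. Without that pair in the sum, a choice made after seeing the data, H2-Ab1 was at 4.12 and H2-DMa at 6.22. Against the border macrophage sum 6 of 7 were above, beside 99.1% of all genes, and the exception, H2-Ab1, differed from it by 0.51 (adjusted p = 0.186).

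Between control and repopulation, where both marker sums were near their control level, the same fit set 4 of the 7 members below the microglia markers, beside 20.7% of all genes. These were H2-Ab1 (-1.37, SE 0.302, adjusted p = 1.2e-04), H2-Aa (-0.81, SE 0.242, adjusted p = 0.00641), Cd74 (-0.46, SE 0.16, adjusted p = 0.0231) and H2-DMa (-0.30, SE 0.118, adjusted p = 0.0476). The H2-DMa call was at the edge of the threshold and was lost under 11 of 19 alternatives, among them 8 of the 10 that left out a control or repopulated library. The Cd74 call was lost without control mouse 2 or 3 or repopulation mouse 1 or 5, and the H2-Aa call without control mouse 3. The H2-Ab1 call held under all 19. The microglia sum itself stood at 109% ± 4.15 of control, but its markers did not all return alike. Fcrls stood at 50.7% of control (log2 fold change -0.98, adjusted p = 6.07e-07) and Csf1r at 124%. Against the border macrophage sum, which stood at 95% ± 7.85, H2-Ab1 alone of the 7 was below (-1.16, SE 0.307, adjusted p = 0.00557), beside 1.82% of all genes. Most of that sum was Stab1, at 93.1% of control. Of its scarcer markers, Clec10a stood at 51.9% of control, Pf4 at 55.2% and Cd209f lower still, but Ms4a7 at 146%. Clec10a, Pf4, Cd209f and Ms4a7 were each at most 0.669 CPM in any library and were not tested. Fcrls was the 1 marker of these 2 sums called lower than control after repopulation. H2-Eb1, Ciita and H2-DMb1 differed from neither sum by an adjusted p under 0.05, with intervals that reach from -1.12 to 0.43.

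**Figure D3:**
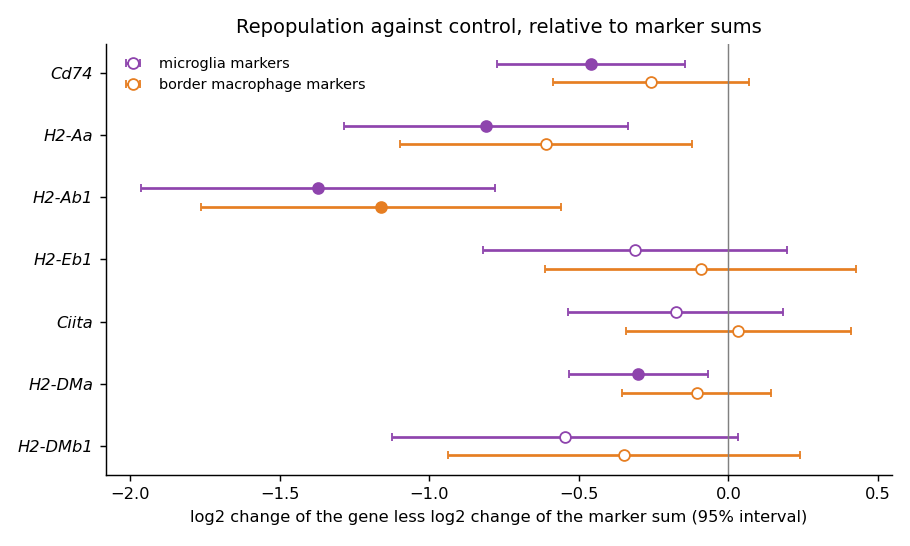
Log2 change from control to repopulation of each of the 7 class II genes less the log2 change of the microglia marker sum (purple) or the border macrophage marker sum (orange), with 95% intervals, filled where the adjusted p was under 0.05. H2-Ab1 lies below both sums, at -1.37 and -1.16, and is the 1 gene filled for both.

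Markers of other cells that can carry class II were at very unequal levels. Of the B cell markers, Ms4a1 was at most 0.118 CPM in any library and at 0 in 10 of the 15. Ighm, the immunoglobulin heavy chain gene, was at 18.8 to 38.0 CPM and fell on PLX3397 (log2 fold change -0.44, adjusted p = 0.0088). The 7 B cell markers summed to 31.7 to 39.0 CPM in control, 19.1 to 30.6 under PLX3397 and 28.8 to 33.8 after repopulation, nearly all of it Ighm, and their part in the class II changes was not tested. Of 7 dendritic cell markers, Xcr1 was at 0 in 12 libraries and at most 0.0696 CPM, and Clec9a was at most 0.355 CPM. Zbtb46 was at 10.6 to 16.2 CPM and Flt3 at 9.93 to 13.3 CPM, which made up most of the sums. These were 23.1 to 28.5, 23.3 to 25.2 and 22.4 to 25.9 CPM in the 3 groups, which overlap. Only Zbtb46 and Flt3 were tested, and 0 of the 2 were called on PLX3397. After repopulation Zbtb46 was called lower than control, at 85.6% of it, beside 15.2% of all genes, and Flt3 stood at 105%. Cd209a, a lectin of monocyte-derived dendritic cells, reached 0.585 CPM in control, 0.0705 on PLX3397 and 0.202 after repopulation. Of the T cell markers, the receptor component Cd3e was at most 0.305 CPM and Lck was at 0.909 to 1.64 CPM. Cd4 was at least 8.94 CPM in every library and made up most of the sums. These were 10.6 to 16.8 CPM in control, 12.2 to 15.4 under PLX3397 and 10.1 to 19.5 after repopulation, which overlap. The 7 monocyte and neutrophil markers summed to 0.286 to 0.959 CPM in control, 0.086 to 0.239 under PLX3397 and 0.177 to 0.852 after repopulation. They were thus lower on PLX3397, as the B cell markers were, and their part was not tested. Choroid plexus markers summed to 9.10 to 24.4, 13.8 to 214 and 8.66 to 550 CPM. Without the 4 libraries over 50 CPM of Ttr, a comparison chosen after seeing the data, Cd74 was at -1.47 (adjusted p = 0.00116), H2-Aa at -3.05 (adjusted p = 5.93e-04), H2-Ab1 at -1.96 (adjusted p = 0.0083), H2-Eb1 at -1.73 (adjusted p = 0.0151) and H2-DMb1 at -2.44 (adjusted p = 0.00438) on PLX3397, so all 5 remained lower.

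Of the 7 genes that process invariant chain and antigen, 4 fell on PLX3397, against 8.35% of all genes, and none rose, against 8.19%. Ctss, the cathepsin that makes the last cut in the invariant chain, went from 31.5 ± 2.66 CPM in control to 0.161 ± 0.1 (SD, n = 5; log2 fold change -7.59, adjusted p = 1.59e-17), which is 0.511% of control, below the 30.4% left of Cd74. After repopulation it stood at 49.0 ± 4.39 CPM, above control (0.64, adjusted p = 9.25e-06), and every repopulated library was above every control. Lgmn, the asparaginyl endopeptidase, fell to 78.1% ± 5.45 (log2 fold change -0.36, adjusted p = 1.18e-06) and Ctsd, an aspartic protease, to 73.2% ± 5.97 of control (-0.45, adjusted p = 2.88e-07). Ifi30, the thiol reductase GILT, was the fourth (-0.91, adjusted p = 5.11e-04). After repopulation 1 was higher than control, Ctss, against 13.9% of all genes. Another 2 were lower, against 15.2% of all genes, Ctsb (-0.19, adjusted p = 1.29e-04) and Ctsl (-0.14, adjusted p = 0.0134).

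Of the 7 factors that bind the class II promoters beside CIITA (the RFX and NFY subunits and Creb1), none was called on PLX3397. After repopulation 2 were higher than in control, against 13.9% of all genes, a count too small to set these factors apart. Rfx5, the DNA-binding RFX subunit of the X box, stood at 119% ± 7.83 of control (log2 fold change 0.26, adjusted p = 8.29e-04) and Nfya, a subunit of the Y box factor, at 113% ± 6.77 (0.17, adjusted p = 0.0147). Of 10 genes on the interferon gamma route to Ciita, 9 were tested. The interferon gene Ifng itself had 0 reads in every library. On PLX3397 the receptor chain Ifngr1 was lower (log2 fold change -0.51, adjusted p = 2.3e-05), Irf2 was lower (-0.25, adjusted p = 0.00517) and the kinase Jak1 was higher (0.13, adjusted p = 0.00522). After repopulation Jak1 was higher than control (0.16, adjusted p = 2.63e-04), and Irf2 (-0.25, adjusted p = 0.00226) and Usf1 (-0.14, adjusted p = 0.0313) were lower.

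Of 5 lineage factors that act on Ciita, 4 were lower on PLX3397, against 8.35% of all genes. Spi1, the PU.1 gene of the myeloid lineage, was left at 1.42% ± 1.47 of control (log2 fold change -6.04, adjusted p = 1.04e-13) and Irf8 at 17% ± 5.33 (-2.56, adjusted p = 1.78e-12). Cebpa (-0.66, adjusted p = 2.57e-06) and Prdm1, which encodes the repressor BLIMP1 (-0.78, adjusted p = 0.035), were the others. After repopulation Irf8 stood above control at 135% ± 12.5 (0.43, adjusted p = 0.00843) and Cebpa below it at 78.5% ± 4.36 (-0.35, adjusted p = 0.00179).

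Surface partners of class II were read from the same fit. Against 8.35% of all genes, 3 of 7 co-stimulatory genes and class II ligands fell on PLX3397. They were Cd86, the ligand of CD28 (log2 fold change -5.11, adjusted p = 1.92e-10), Lag3, a receptor that binds class II (-4.91, adjusted p = 8.19e-14), and Cd40 (-1.02, adjusted p = 0.0301). Lag3 had 3.50 to 6.30 CPM in control, 0.043 to 0.317 under PLX3397 and 9.08 to 10.8 after repopulation, so the repopulated libraries were above all controls (1.00, adjusted p = 7.42e-06). Cd274, the PD-L1 gene, was the other one higher than control after repopulation (0.62, adjusted p = 0.00536). Of the 5 genes for ligands and co-receptors of CD74, 4 were tested and none was called on PLX3397. Against 15.2% of all genes, 3 were lower after repopulation than in control. These were the cytokine genes Mif (-0.36, adjusted p = 1.1e-05) and Ddt (-0.37, adjusted p = 2.34e-04) and the receptor gene Cxcr4 (-0.79, adjusted p = 0.0177). Of the ubiquitin ligases that remove class II from the surface, March1 was not called on PLX3397 (-0.08, adjusted p = 0.409) and was higher after repopulation than in control (0.26, adjusted p = 0.00122), and March8 was called in neither comparison against control.

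**Figure D4:**
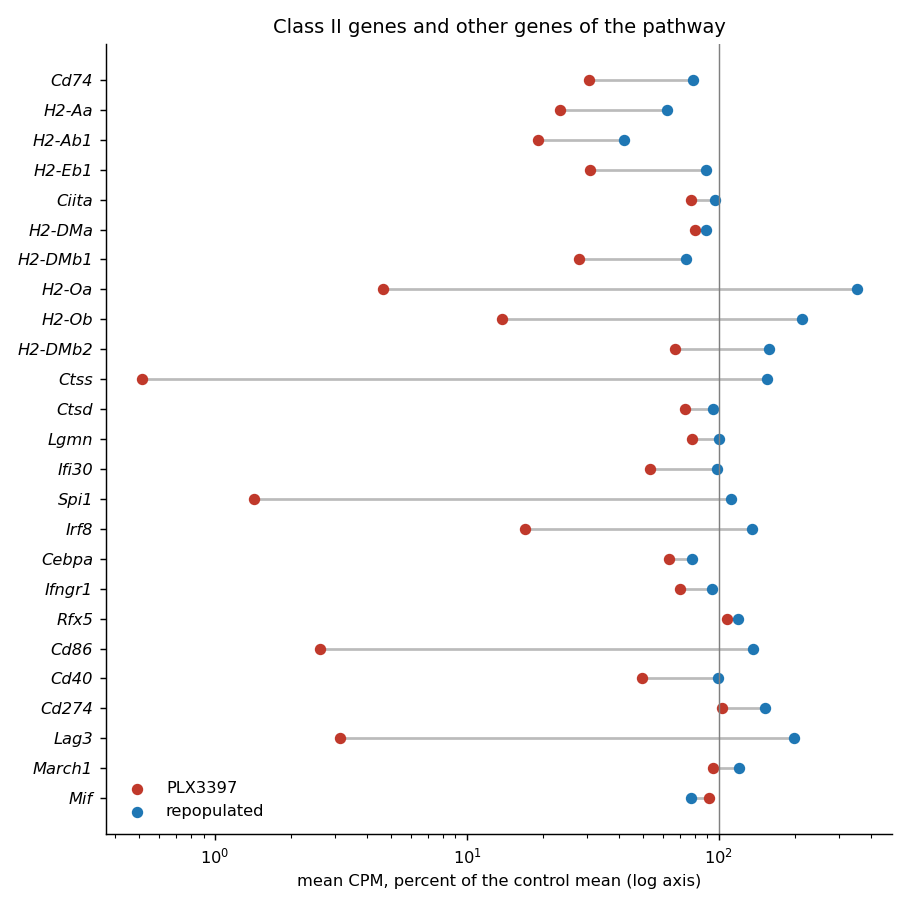
Mean CPM as a percent of the control mean (log axis) on PLX3397 (red) and after repopulation (blue) for the 7 class II genes, the other class II chains and genes of the pathway, with the control level as a grey line. H2-Oa, Ctss, Spi1, Cd86 and Lag3 lie under 5% on PLX3397, where the 7 class II genes lie between 19.2% and 80.0%, and H2-Ab1, at 41.9%, is the lowest blue point.

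Genes whose pattern over the 15 libraries was most like that of a member were found by the root mean square difference of log2 CPM centred on the control mean, among 13644 genes with a mean of at least 1 CPM. All share the libraries and their depth, so the likeness is a description. For Cd74 they included Rnase4, a secreted ribonuclease (0.28), and Cyba, a subunit of the phagocyte NADPH oxidase (0.31). For H2-Aa they included Aif1, the IBA1 gene of microglia and macrophages (0.58), and Gcnt1 (0.58). For H2-Eb1 they were the kinase gene Syk (0.39), Parvg (0.40) and Abca9 (0.40), and for H2-DMb1 Gcnt1 (0.53), the kinase gene Fes (0.55) and Aif1 (0.56). H2-Ab1 had the most distant neighbours, among them Mlph (0.65) and Ecscr (0.67). Mlph averaged -2.17 on PLX3397 and -0.96 after repopulation relative to control on the log2 scale, beside -2.03 and -1.21 for H2-Ab1. The 2 members that changed least had the nearest neighbours, Itm2a (0.11), Nrros, a myeloid regulator of TGF-beta activation (0.11), and Rcbtb2 (0.12) for H2-DMa, and Tcf7l1 (0.18), Myh9, a non-muscle myosin (0.20), and Il10rb, an interleukin receptor chain (0.20), for Ciita.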

How the data were processed

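The authors deposited raw read counts for each gene symbol. The submitters' processing notes name mm10, STAR, FastQC, MultiQC, DESeq2 and DESeq, without roles or versions. Not given in the sources used here are the counting tool, the annotation release and whether strand was used. Ctsb, Ctsl, Ifi30, Rfx5, Jak1, Cebpa, Cd274 and March1 also share exon bases with a gene on the opposite strand, so their counts are uncertain. Ctsl, Ctsd, Usf1 and Ddt share exon bases with a gene on the same strand, and their counts are uncertain too. The class II members and all gene lists were chosen with earlier results of these data known. Genes were filtered with filterByExpr (minimum count 10), scaled with TMM factors and tested with edgeR 4.0.16 in R 4.3.3, by the quasi-likelihood F test (robust) in 1 fit of all 15 libraries with no covariate, with Benjamini-Hochberg adjustment over 18369 genes and a threshold of 0.05. H2-Aa, H2-Ab1, H2-Eb1 and H2-DMb1 passed the filter through the control and repopulated libraries, having at most 3 depleted libraries above its limit of 0.348 CPM. SE and 95% intervals come from that fit. For changes relative to markers, the log of the marker sum was the offset of the fit. The code was tested on simulated data.

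CPM are TMM-scaled, and RPKM use the exon length of GENCODE release M21 on GRCm38, which is mm10. The floor of 3 reads covers counting error only. Named genes are all 7 members, and from each pathway list those called in a comparison against control, at most 3 per list with the smallest adjusted p, plus any in counts of 5 or fewer. The most alike genes are the 3 nearest per member, without predicted gene models. Some genes that these rules select are not reported here. No pair of libraries held identical counts, and libraries of a group differed by more than sampling noise (chi-square 2.53 to 9.95 per degree of freedom). Alternatives were DESeq2 1.42.0 size factors, its Wald test, no filter, 2 groups per fit, a replicate block, length and GC trends (known for 97.8% of tested genes and all 7 members), each library left out, and other marker references.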

Additional observations from a re-analysis of the deposited data

Results flagged for a closer look

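Of 27 sets of 5 libraries tested for a value far from the others, 3 had one, and chance alone gives about 1 in 20. Cd74 was highest in depletion mouse 4, at 1.71 CPM, while the other depleted mice lay between 0.975 and 1.17 CPM. H2-Aa was highest in repopulation mouse 2, at 1.80 CPM, with the others of its group between 0.640 and 0.963 CPM. The sum of the border macrophage markers was lowest in control mouse 4, at 31.1 CPM, with the other controls between 38.2 and 40.5 CPM.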

How the results depend on the processing

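No called value changed sign under any alternative run. Of 6 members called on PLX3397, single libraries left out gave 5 to 7, and of 5 called from PLX3397 to repopulation they gave 4 to 5. Between control and repopulation the 1 member called became 2 with no filter on low counts and 1 to 2 with single libraries left out, the added gene being H2-Aa. Without the 4 libraries over 50 CPM of Ttr, chosen after seeing the data, 3 members and 849 genes (589 higher, 260 lower) were called from PLX3397 to repopulation in place of 5 and 3047, in a fit with 2 depleted mice, and H2-Ab1 and H2-Eb1 were lost. Of 4 members below the microglia markers after repopulation, 1 was below with border macrophage markers as reference, 2 to 4 depending on which 1 microglia marker was left out, and 2 to 4 with single libraries left out. The causes were not tested.

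The labels do not state that replicate numbers pair the mice. Same-numbered libraries deviated with correlations of -0.131 to 0.103 over 15 pairs, beside -0.153 to 0.184 over 60 pairs of other numbers. These correlations show no sign of pairing but cannot exclude it. With the replicate block, 6, 4 and 1 members were called in the 3 comparisons, and the call lost was the rise of H2-Ab1 from PLX3397 to repopulation (1.10, adjusted p = 0.0726). Depth limits H2-Aa, H2-Ab1, H2-Eb1 and H2-DMb1 most, with 0 to 19 reads per depleted library. DESeq2 size factors moved the median of all genes by at most 0.0013 on the log2 scale.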
